A study of Mus musculus with 14 samples.

Results

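The oncofetal genes of the Lin28, Igf2bp and Hmga families were followed over all 14 bead arrays of a mouse reprogramming series. The 7 genes chosen by name were Lin28a, Lin28b, Igf2bp1, Igf2bp2, Igf2bp3, Hmga1 and Hmga2, of 16593 genes named on the array. Probes named for 4 of them were present: 2 probes for Lin28a, 1 for Igf2bp1, 2 for Igf2bp3 and 2 for Hmga2. Lin28b, Igf2bp2 and Hmga1 had no probe under these names and were not analysed here. All 4 genes had at least 1 tested probe, and 6 of the 7 probes were tested, because the other Hmga2 probe was not detected on any array.

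Expression was compared between induced pluripotent stem cells (iPSC), embryonic stem cells (ESC) and skin fibroblasts (SC), with 2 or 3 arrays per group. A-iPSC-ZSCAN10 (2 arrays) were iPSC of aged mouse fibroblasts that carried an inducible ZSCAN10, a transcription factor of pluripotent cells, and were grown with doxycycline at 2 µg/ml. A-iPSC (2 arrays) came from aged fibroblasts without the added ZSCAN10, and Y-iPSC (2 arrays) from embryonic fibroblasts. All 3 kinds of iPSC had received retroviral mouse OCT4, SOX2, KLF4 and MYC, and were grown, as were the ESC (2 arrays), in 15% serum with LIF at 1000 U/ml. The aged fibroblasts (A-SC, 3 arrays) were from tail tip skin of B6CBAF1 mice 1.5 years old, and the young fibroblasts (Y-SC, 3 arrays) from embryonic skin (E17.5), both grown in 10% serum. Age therefore cannot be told apart from developmental stage and body site. Added ZSCAN10 cannot be told apart from doxycycline, nor from the number of decimals of the exported signals, given below. The codes of the iPSC arrays are read here as clone codes. Whether replicate arrays stand for separate cultures or animals is not stated, so the p-values reflect the spread among these arrays alone, which may be technical.

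These families are called oncofetal because they are active in the embryo, become quiet in most adult tissues and return in many tumours. LIN28A and LIN28B are RNA-binding proteins that hold back the maturation of the let-7 microRNAs by binding their precursor hairpins, and let-7 in turn represses mRNAs that include Lin28a, the Igf2bp genes and Hmga2. The IGF2BP proteins bind and stabilise target mRNAs, among them Igf2 and Myc, and read the m6A mark on RNA. HMGA proteins bend AT-rich DNA and open chromatin, and HMGA2 restrains the cell cycle inhibitor locus Cdkn2a in fetal stem cells.

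The let-7 sequences are given as background for the regulator named above, and no target site in an mRNA was examined. Of 11 mature let-7 family sequences in RefSeq (mouse build GRCm38.p6), 10 share the seed of let-7a, bases 2 to 8, by which the microRNA pairs with its targets. The capitals mark the seed, and let-7j, with another seed, is given for contrast. The microRNAs themselves were not analysed here.
mmu-let-7a-5p: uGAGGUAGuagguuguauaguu
mmu-let-7d-5p: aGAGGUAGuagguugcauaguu
mmu-let-7g-5p: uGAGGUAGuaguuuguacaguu
mmu-miR-98-5p: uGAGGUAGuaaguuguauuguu
mmu-let-7j: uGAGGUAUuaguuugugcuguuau

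LIN28A recognises a GGAG motif in the loop of the precursor, close to the 3′ arm. The letters GGAG were found between the arms in 9 of 12 let-7 family hairpins. The hairpin of Mirlet7g (chr9:106178840-106178927, plus strand) holds the motif, in capitals, and that of Mirlet7b (chr15:85707319-85707403, plus strand) does not hold these letters between its arms.
Mirlet7g: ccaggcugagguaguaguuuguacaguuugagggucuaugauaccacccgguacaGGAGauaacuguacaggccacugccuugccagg
Mirlet7b: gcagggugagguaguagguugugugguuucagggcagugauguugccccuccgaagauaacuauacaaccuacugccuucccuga

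The promoter of Igf2bp3 is given because Igf2bp3 was called between A-iPSC and each of the other kinds of pluripotent cells, as given with its values. The window runs from 250 bases before to 50 bases after the gene's start in RefSeq (GRCm38.p6, chr6:49214905-49215204, minus strand, printed 5′ to 3′ along the gene). The E-box CACGTG, a letter string bound by MYC and related factors and identical on both strands, occurs 2 times and is in capitals. Of 32851 mouse promoters of this length, 7.2% hold it at least once. The window of Lin28b holds it 1 time, and those of Lin28a, Igf2bp2, Hmga1 and Hmga2 hold none. The Igf2bp1 promoter was not used here.
Igf2bp3: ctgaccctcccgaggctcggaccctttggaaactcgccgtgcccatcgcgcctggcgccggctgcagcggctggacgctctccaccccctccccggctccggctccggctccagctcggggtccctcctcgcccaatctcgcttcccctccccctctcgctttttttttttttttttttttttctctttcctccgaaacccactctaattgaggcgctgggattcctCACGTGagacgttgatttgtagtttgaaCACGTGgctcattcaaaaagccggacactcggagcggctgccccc

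Array medians of the raw signal were 111 to 148 and 47.6% to 52.3% of probes were detected on an array. Values below are log2 normalised signals of 1 probe per gene taken after an offset of 16 was added, so that a probe without signal lies a little above the log2 of that offset. Differences are log2 fold changes ± SE from limma with an adjusted p over all tested probes. The small number of arrays limits the precision. Zscan10 was 7.96 and 8.71 on the A-iPSC-ZSCAN10 arrays, 5.17 and 4.48 on the A-iPSC arrays, 7.57 and 6.44 on the Y-iPSC arrays and 9.53 and 9.92 on the ESC arrays, and the A-iPSC-ZSCAN10 arrays were higher than A-iPSC by 3.51 ± 0.38 (adjusted p = 0.000225). Of 10 marker genes of pluripotent cells, 7 to 8 were detected on A-iPSC-ZSCAN10 arrays, 4 to 5 on A-iPSC, 5 to 9 on Y-iPSC and 10 on ESC arrays. Nanog, Esrrb, Utf1, Dppa4 and Tdgf1 were not detected on any A-iPSC array, so that these lines lacked signal for part of the pluripotency markers. The other iPSC also fell short of ESC. Dppa4 was not detected on any Y-iPSC array, nor Tdgf1 on any A-iPSC-ZSCAN10 array. Nanog was lower than in ESC by -5.62 in Y-iPSC, -6.08 in A-iPSC-ZSCAN10 and -7.38 in A-iPSC. In bulk RNA of this kind, fewer cells of a type and less RNA per cell cannot be told apart.

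The families did not move as one. In A-iPSC both Igf2bp1 and Igf2bp3 were lower than in Y-iPSC. A-iPSC-ZSCAN10 stood above A-iPSC for both. Lin28a was high in ESC alone, with at most a weak signal in any iPSC. Hmga2 was detected, by its tested probe, on Y-SC arrays and on no other array. The plot of the values on each array shows these 3 patterns.

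**Figure D1:**
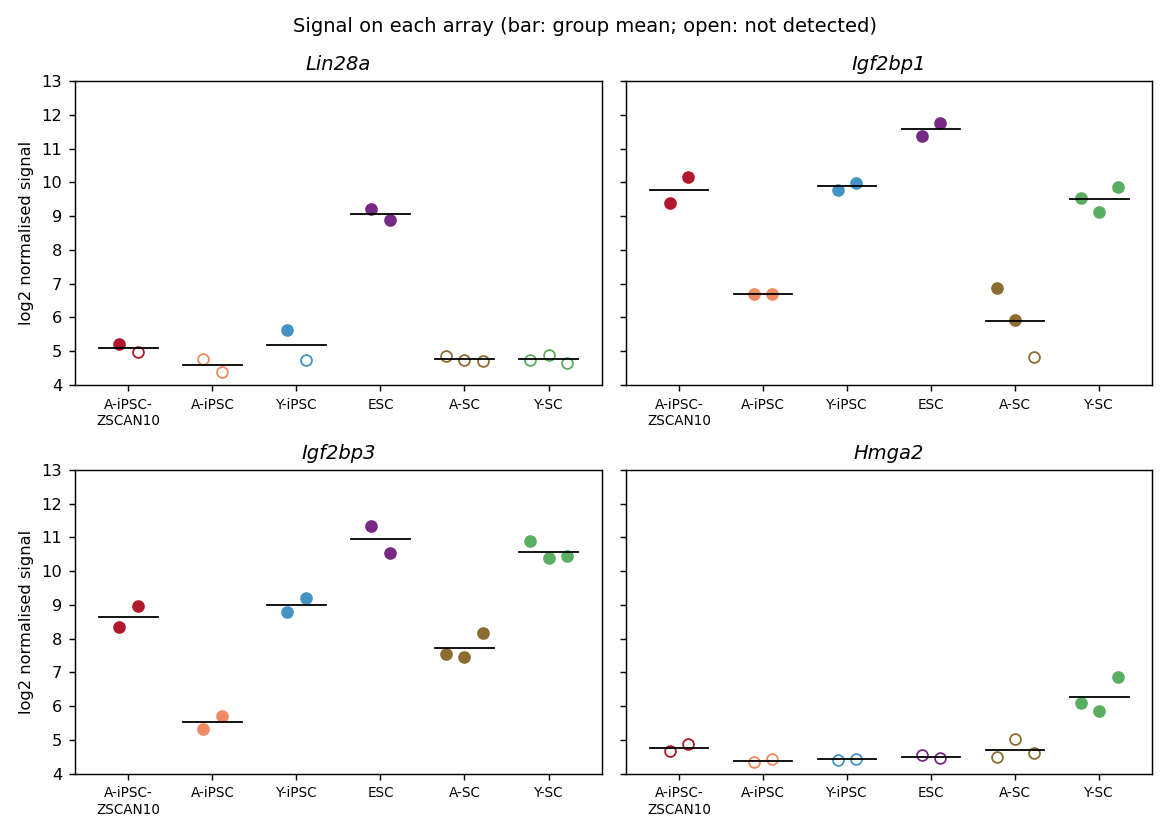
Log2 normalised signal of Lin28a, Igf2bp1, Igf2bp3 and Hmga2 on each of the 14 arrays, with the groups along the horizontal axis; filled points were detected, open points were not, and black bars are group means. Lin28a stands out on the 2 ESC arrays, Igf2bp1 and Igf2bp3 are low on the 2 A-iPSC arrays, and Hmga2 is detected on the 3 Y-SC arrays.

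Against the background of all 10004 genes, counts of the 4 genes were as follows. In A-iPSC against Y-iPSC, 2 were lower and 0 higher, where 4.38% of all genes were lower and 6.12% higher. In A-iPSC-ZSCAN10 against A-iPSC, 2 were higher and 0 lower, where 7.78% of all genes were higher and 8.38% lower. These 2 comparisons share the A-iPSC arrays, as all comparisons with ESC share the ESC arrays. In A-iPSC-ZSCAN10 against Y-iPSC none of the 4 passed in limma's test, nor at an unadjusted p under 0.05, where 0.67% of all genes were higher and 0.78% lower. In A-SC against Y-SC 3 were lower and 0 higher, where 0.27% of all genes were lower and 0.21% higher.

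On reprogramming, 2 of the 4 were lower in Y-iPSC than in Y-SC, where 12.5% of all genes were lower and 12.1% higher. In A-iPSC against A-SC 1 was lower, where 15.5% of all genes were lower and 17.9% higher. In A-iPSC-ZSCAN10 against A-SC 1 was higher, where 12% of all genes were higher and 10% lower. Against ESC, 3 were lower in A-iPSC-ZSCAN10 (6.47% of all genes lower, 6.76% higher) and 3 in A-iPSC (18.1% lower, 17.3% higher). In Y-iPSC, 2 were lower than in ESC (7.53% lower, 7.49% higher). In ESC against the mean of both fibroblast groups, 3 were higher and 1 lower, where 22.6% of all genes were higher and 20.8% lower. Lin28a passed the filter on low signal only through the ESC arrays and Hmga2 only through the Y-SC arrays, so these genes had to differ where those groups are compared.

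**Figure D2:**
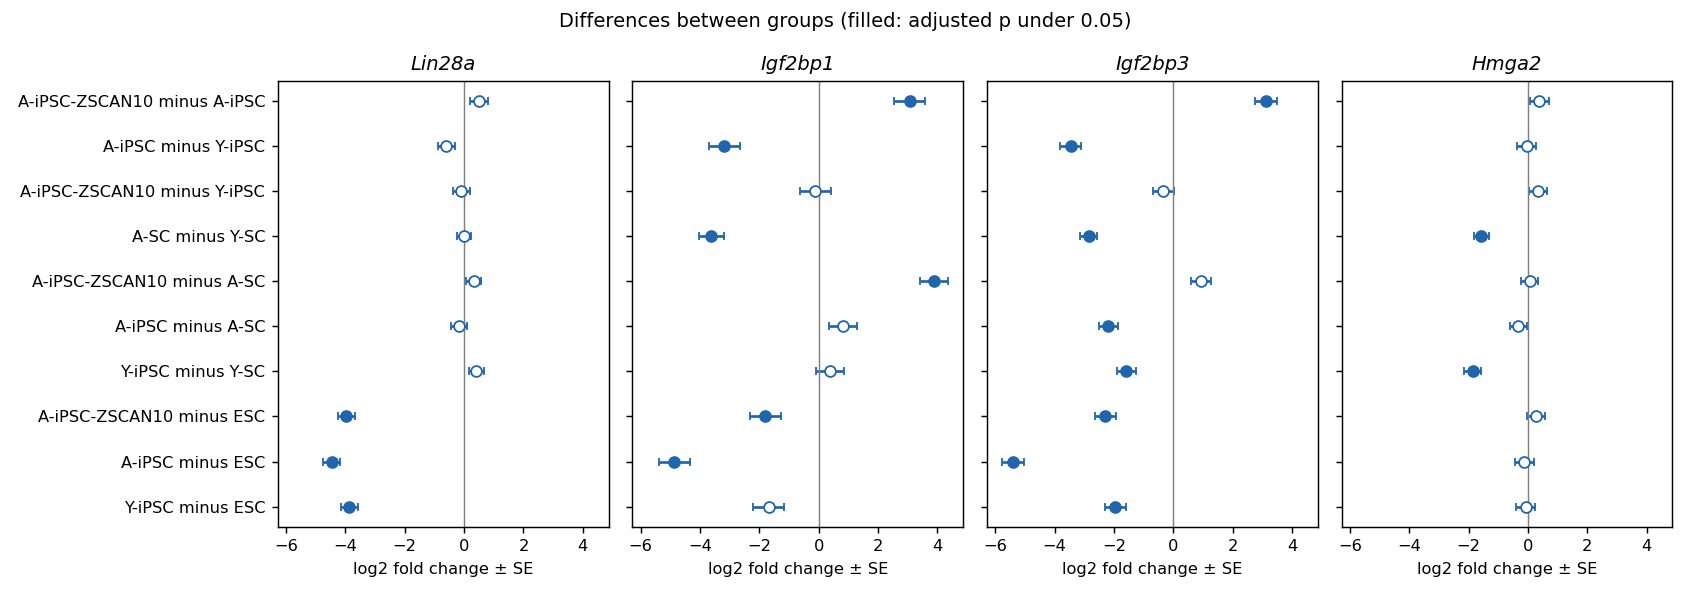
Log2 fold changes (points) with SE (bars) of the 4 genes in 10 comparisons, each named as first group minus second; filled points had an adjusted p under 0.05. Igf2bp1 and Igf2bp3 lie above 0 in A-iPSC-ZSCAN10 minus A-iPSC and below 0 in A-iPSC minus Y-iPSC, whereas Lin28a is filled only against ESC.

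Lin28a, the gatekeeper of let-7 maturation, was 5.20 and 4.97 on the A-iPSC-ZSCAN10 arrays, 4.78 and 4.39 on the A-iPSC arrays and 5.63 and 4.74 on the Y-iPSC arrays. ESC arrays read 9.22 and 8.89. Fibroblasts read 4.86, 4.73 and 4.72 in A-SC, and 4.75, 4.89 and 4.66 in Y-SC. Both ESC arrays stood far above the other 12. Most of these 12 values were not above background, so that they have no order. The gene was detected on 1 of 2 A-iPSC-ZSCAN10 arrays, 0 of 2 A-iPSC, 1 of 2 Y-iPSC, 2 of 2 ESC and no fibroblast array.

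The difference from ESC was -3.96 ± 0.29 in A-iPSC-ZSCAN10 (adjusted p = 4.86e-06) and -3.87 ± 0.29 in Y-iPSC (adjusted p = 6.00e-06). A-iPSC was at least 15.5-fold lower than ESC (adjusted p = 1.29e-06), a bound against the lowest signal called detected on those arrays. Lin28a passed the filter on low signal only through the ESC arrays, so its calls against ESC add no independent support. Between kinds of iPSC no call was made: A-iPSC minus Y-iPSC was -0.60 ± 0.29 (adjusted p = 0.224) and A-iPSC-ZSCAN10 minus A-iPSC was 0.50 ± 0.29 (adjusted p = 0.279). The other Lin28a probe followed the first over the 14 arrays with r = 0.98 and gave the same calls.

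Igf2bp1, an mRNA-binding protein of embryonic cells that protects Myc and other messages from decay, was 9.39 and 10.15 on A-iPSC-ZSCAN10 arrays, 6.70 and 6.71 on A-iPSC arrays and 9.79 and 9.98 on Y-iPSC arrays. ESC arrays read 11.37 and 11.77. A-SC arrays read 6.88, 5.93 and 4.84, the last not detected, and Y-SC arrays read 9.54, 9.12 and 9.87. A-iPSC and A-SC were low and overlapped with each other, whereas A-iPSC-ZSCAN10, Y-iPSC and Y-SC shared a middle range and ESC stood above them all.

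A-iPSC lay below Y-iPSC by a log2 difference of -3.18 ± 0.52 (adjusted p = 0.00332), a 9.06-fold lower signal. A-iPSC-ZSCAN10 lay above A-iPSC by 3.07 ± 0.52 (adjusted p = 0.00288), an 8.38-fold higher signal. Both calls held in all 9 other settings of the processing and when any 1 of the 4 arrays was left out. Over those settings A-iPSC minus Y-iPSC ranged from -3.19 to -2.27, and A-iPSC-ZSCAN10 minus A-iPSC from 2.19 to 3.28. A-iPSC-ZSCAN10 minus Y-iPSC was -0.11 ± 0.52 (adjusted p = 0.975).

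The same step was seen between the fibroblasts, with A-SC minus Y-SC at -3.62 ± 0.43 (adjusted p = 0.00328). This call was lost when only the 6 fibroblast arrays entered the fit (adjusted p = 0.188). Neither kind of iPSC made without ZSCAN10 passed against its fibroblasts: Y-iPSC minus Y-SC was 0.38 ± 0.48 (adjusted p = 0.621) and A-iPSC minus A-SC was 0.82 ± 0.48 (adjusted p = 0.213), a difference that passed without A-SC 1 (1.32, adjusted p = 0.022). The difference between these changes was 0.44 ± 0.67 (adjusted p = 0.778). A-iPSC-ZSCAN10 was higher than A-SC by 3.88 ± 0.48 (adjusted p = 0.000279).

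Compared with ESC, Igf2bp1 was lower in A-iPSC by -4.87 ± 0.52 (adjusted p = 5.46e-05), where the signal with the offset of 16 taken off was 2.89% of that of ESC. A-iPSC-ZSCAN10 minus ESC was -1.80 ± 0.52 (adjusted p = 0.0437) and Y-iPSC minus ESC was -1.69 ± 0.52 (adjusted p = 0.0515). These last differences lie on either side of the threshold. Neither passed when any 1 of its 4 arrays was left out, with adjusted p up to 0.297 for A-iPSC-ZSCAN10 and up to 0.254 for Y-iPSC. With 1 array fewer the differences were -2.18 to -1.42 for A-iPSC-ZSCAN10 and -1.88 to -1.49 for Y-iPSC. In 8 of 9 other settings both passed. The signal without the offset was 29.1% of that of ESC in A-iPSC-ZSCAN10 and 30.5% in Y-iPSC.

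Igf2bp3, a paralog re-expressed in many carcinomas that binds Igf2 mRNA, was 8.33 and 8.96 on A-iPSC-ZSCAN10 arrays, 5.34 and 5.72 on A-iPSC arrays and 8.77 and 9.20 on Y-iPSC arrays. ESC arrays read 11.33 and 10.55. A-SC arrays read 7.56, 7.45 and 8.16, and Y-SC arrays 10.89, 10.38 and 10.45. A-iPSC was the lowest group, below its own fibroblasts, and Y-SC overlapped with ESC.

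A-iPSC lay below Y-iPSC by -3.46 ± 0.36 (adjusted p = 0.000177). A-iPSC-ZSCAN10 lay above A-iPSC by 3.12 ± 0.36 (adjusted p = 0.000304), an 8.68-fold higher signal. These calls also held in all 9 other settings and without any 1 of the 4 arrays. A-iPSC-ZSCAN10 minus Y-iPSC was -0.34 ± 0.36 (adjusted p = 0.795), with overlapping arrays.

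Unlike Igf2bp1, Igf2bp3 passed against the cells of origin in both kinds of iPSC made without ZSCAN10. Y-iPSC minus Y-SC was -1.59 ± 0.33 (adjusted p = 0.005) and A-iPSC minus A-SC was -2.19 ± 0.33 (adjusted p = 0.000441). The difference between these changes was -0.61 ± 0.47 (adjusted p = 0.524). A-iPSC-ZSCAN10 minus A-SC was 0.93 ± 0.33 (adjusted p = 0.0663) and did not pass, although both A-iPSC-ZSCAN10 arrays were above all 3 A-SC arrays. It passed without A-SC 1.4 (1.15, adjusted p = 0.0495).

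Between the fibroblasts, A-SC minus Y-SC was -2.85 ± 0.29 (adjusted p = 0.00206), and with only the 6 fibroblast arrays in the fit it did not pass (adjusted p = 0.0729). Against ESC, Igf2bp3 was lower in A-iPSC-ZSCAN10 by -2.29 ± 0.36 (adjusted p = 0.00166), in A-iPSC by -5.41 ± 0.36 (adjusted p = 1.59e-06) and in Y-iPSC by -1.95 ± 0.36 (adjusted p = 0.00409). The Y-iPSC call was lost without ESC D (-1.56, adjusted p = 0.0511). Signals without the offset were 19.5%, 1.52% and 24.6% of that of ESC in A-iPSC-ZSCAN10, A-iPSC and Y-iPSC. The A-iPSC share rests on signal close to background. The other Igf2bp3 probe followed the first with r = 0.99 and gave the same calls in the 12 comparisons.

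For the reprogramming change with ZSCAN10, a contrast added after the values were seen set A-iPSC-ZSCAN10 minus A-SC against Y-iPSC minus Y-SC. By its form it equals A-iPSC-ZSCAN10 minus Y-iPSC, less A-SC minus Y-SC. The first part was -0.11 for Igf2bp1 and -0.34 for Igf2bp3, the second -3.62 and -2.85. For these genes the contrast therefore mostly restates the fibroblast difference given above. In this contrast 2 of the 4 genes were higher and 0 lower, where 0.29% of all genes were higher and 0.34% lower. The difference was 3.51 ± 0.67 for Igf2bp1 (adjusted p = 0.0494) and 2.51 ± 0.47 for Igf2bp3 (adjusted p = 0.0441). Both lay close to the threshold: with 1 of the 10 arrays left out, Igf2bp1 passed in 2 of 10 fits and Igf2bp3 in 1 of 10, with adjusted p up to 0.153 for Igf2bp1 and 0.139 for Igf2bp3. Igf2bp1 kept its call only without A-SC 1 or Y-iPSC 12, and Igf2bp3 only without Y-iPSC 12. For (A-iPSC minus A-SC) minus (Y-iPSC minus Y-SC), 0 of the 4 genes passed in limma's test and 1, Hmga2, had an unadjusted p under 0.05, where 2.44% of all genes were higher and 1.55% lower. Of the groups in this contrast Hmga2 was detected in Y-SC alone.

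Among the iPSC, the summed keratinocyte markers moved with Igf2bp1 and Igf2bp3. The summed signal of 6 keratinocyte markers was 6549 and 9824 on A-iPSC-ZSCAN10 arrays, 160 and 165 on A-iPSC arrays, and 9652 and 4063 on Y-iPSC arrays. It was 1517 and 839 on ESC arrays. Krt14, Krt17 and Lgals7 made up the detected markers on the high arrays, and Krt5, Krt15 and Trp63 were not detected on any A-iPSC-ZSCAN10 or Y-iPSC array. In the fibroblasts the sum was 143 to 160 on A-SC arrays. On the Y-SC arrays 1, 16 and 17 it was 1548, 158 and 154, where Igf2bp1 read 9.54, 9.12 and 9.87 and Igf2bp3 read 10.89, 10.38 and 10.45.

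The summed signal of 8 fibroblast markers was 2321 to 3973 in A-iPSC-ZSCAN10, 580 to 1036 in A-iPSC and 521 to 1832 in Y-iPSC. It was 1904.5 to 2037 in ESC, 22531 to 28813 in A-SC and 16789 to 34729 in Y-SC. In this sum A-iPSC and Y-iPSC overlapped. The summed signal of 3 macrophage markers was 241 to 383 in A-iPSC-ZSCAN10, 314 to 361 in A-iPSC and 159 to 231 in Y-iPSC. Whether the iPSC cultures held other cell types, and what part these would have in the Igf2bp differences, was not tested. The plot of marker sums gives them for each array.

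**Figure D3:**
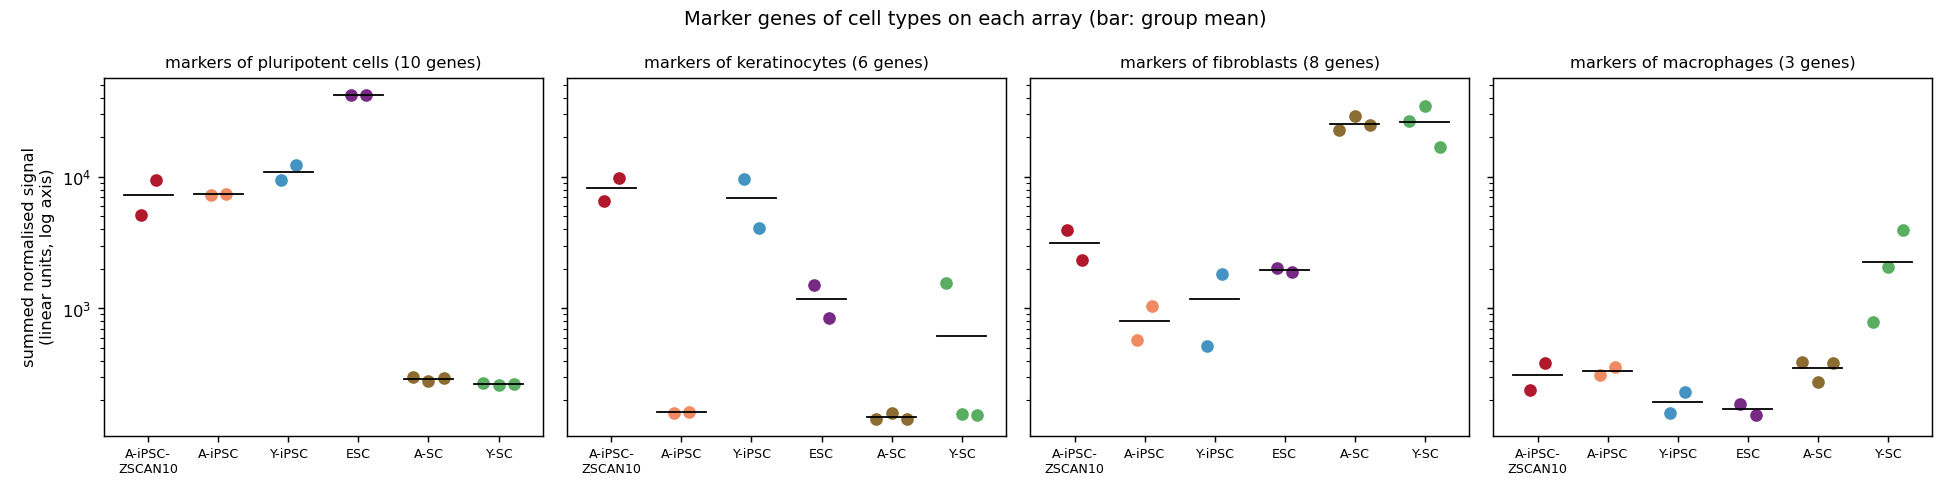
Summed normalised signal (linear units on a log axis) of marker genes of 4 cell types on each array, with groups along the horizontal axis and black bars for group means. Keratinocyte markers are high on the 2 A-iPSC-ZSCAN10 and the 2 Y-iPSC arrays and low on the 2 A-iPSC arrays, and macrophage markers are highest on the 3 Y-SC arrays.

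Hmga2, the AT-hook chromatin protein of fetal and mesenchymal cells, was detected by its tested probe on 3 of 3 Y-SC arrays and on none of the other 11. A-iPSC-ZSCAN10 arrays read 4.66 and 4.87, A-iPSC arrays 4.34 and 4.42, Y-iPSC arrays 4.40 and 4.45, and ESC arrays 4.54 and 4.46. A-SC arrays read 4.49, 5.04 and 4.62, against 6.11, 5.87 and 6.88 on Y-SC arrays. On this probe the Y-SC arrays did not overlap with any other group. The other Hmga2 probe, not detected on any array, followed the first with r = 0.81. It read 4.36, 5.03 and 4.38 on A-SC arrays and 4.85, 4.74 and 5.04 on Y-SC arrays, which overlap. The Y-SC signal of Hmga2 therefore rests on 1 probe.

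A-SC was at least 2.27-fold lower than Y-SC (adjusted p = 0.0237), and Y-iPSC at least 2.54-fold lower than Y-SC (adjusted p = 0.000791). The Y-iPSC call held in all 9 other settings and all 5 fits with an array left out. Hmga2 passed the filter on low signal only through the Y-SC arrays, so its calls against Y-SC add no independent support. The A-SC call was lost without A-SC 1 (adjusted p = 0.0535), without A-SC 1.4 (adjusted p = 0.125), and in 5 of 9 other settings. ESC were at least 1.48-fold lower than the mean of the fibroblasts (adjusted p = 0.00884), a mean that includes the A-SC arrays without detection. This call was lost without ESC D (adjusted p = 0.056), without ESC H (adjusted p = 0.0788) and with export format as a block (adjusted p = 0.0638). The test of the difference between reprogramming changes gave 1.52 ± 0.41 (adjusted p = 0.0617), and it passed without Y-SC 16 (1.73, adjusted p = 0.0435). Of the groups in that test Hmga2 was detected in Y-SC alone. The test therefore mostly restates the Y-SC signal and adds no independent support.

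The 3 measured macrophage markers summed to 277 to 389 on A-SC arrays, against 786 to 3936 on Y-SC arrays, and the Y-SC array with the highest sum, 17, also had the highest Hmga2. Y-SC 16, with a sum of 2066, had the lowest Hmga2 of the 3, and Adgre1 was detected on the Y-SC arrays alone. The part of macrophages in the Hmga2 values was not tested.

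Signals of 2 arrays of each fibroblast group (A-SC 1.3 and 1.4, and Y-SC 16 and 17) were exported with 1 decimal. Those of the A-iPSC-ZSCAN10 arrays had up to 4 decimals, and those of all remaining arrays up to 5. Export format as a block told only the arrays of 1 decimal apart from the rest. It could not separate 4 from 5 decimals, a split that follows the A-iPSC-ZSCAN10 group. Within the arrays of 1 decimal, A-SC minus Y-SC (2 arrays each) was -4.11 for Igf2bp1 and -2.61 for Igf2bp3. Between the fibroblast arrays of 5 decimals, with 1 array each, it was -2.65 for Igf2bp1 and -3.33 for Igf2bp3. Both genes were lower in A-SC in both formats, and Hmga2 was not detected on an A-SC array of either.

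Genes around these families were read from lists of related pathways. Of 21 let-7 targets 16 were tested. Against ESC, A-iPSC-ZSCAN10 had 0 higher and 5 lower, A-iPSC 1 higher and 5 lower, and Y-iPSC 0 higher and 6 lower, with median differences of -0.81 in A-iPSC-ZSCAN10, -0.61 in A-iPSC and -1.0 in Y-iPSC. Of all genes, 6.47% were lower and 6.76% higher in A-iPSC-ZSCAN10, 18.1% lower and 17.3% higher in A-iPSC, and 7.53% lower and 7.49% higher in Y-iPSC. The medians over all genes lay between -0.03 and 0.00. Sall4, a zinc finger regulator of stem cell identity, was lower than in ESC in A-iPSC-ZSCAN10 by -1.94 ± 0.36 (adjusted p = 0.00472), in A-iPSC by -2.94 ± 0.36 (adjusted p = 0.000136) and in Y-iPSC by -2.63 ± 0.36 (adjusted p = 0.000573). The A-iPSC-ZSCAN10 call for Sall4 was lost without A-iPSC-ZSCAN10 3 (adjusted p = 0.0581).

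Nr6a1, the germ cell nuclear factor, read 6.32 and 6.50 in A-iPSC-ZSCAN10, 6.91 and 6.91 in A-iPSC and 6.99 and 6.26 in Y-iPSC, against 9.55 and 9.91 in ESC. It was lower than in ESC in all 3 kinds of iPSC (adjusted p = 0.000177, 0.00025 and 0.00025). Arid3b, a DNA-binding protein of the ARID family, was lower by -3.34 ± 0.62 in A-iPSC-ZSCAN10 (adjusted p = 0.00456), -2.74 ± 0.62 in A-iPSC (adjusted p = 0.00553) and -3.63 ± 0.62 in Y-iPSC (adjusted p = 0.0026). Its A-iPSC-ZSCAN10 call was lost without A-iPSC-ZSCAN10 3 (adjusted p = 0.0553), and its Y-iPSC call with only the arrays compared (adjusted p = 0.0555).

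Between A-iPSC and Y-iPSC 0 of the 16 let-7 targets passed in limma's test and 2 had an unadjusted p under 0.05, with a median of -0.21 beside -0.01 over all genes. Of all genes, 4.38% were lower and 6.12% higher in A-iPSC there. In A-iPSC-ZSCAN10 against A-iPSC 2 targets were lower, where 8.38% of all genes were lower and 7.78% higher. These were Igf1r, the IGF1 receptor, at -1.35 ± 0.37 (adjusted p = 0.029), and Arid3a at -1.01 ± 0.29 (adjusted p = 0.0374). Neither passed when any 1 of the 4 arrays was left out (adjusted p up to 0.19 and 0.23). On reprogramming, Sall4 rose in all 3 kinds of iPSC, by at least 39.2-fold in A-iPSC-ZSCAN10 and 19.5-fold in A-iPSC over A-SC and by at least 24.6-fold in Y-iPSC over Y-SC. Thbs1, a matrix glycoprotein, and Ccnd2, a G1 cyclin, fell in all 3. The Ccnd2 calls were lost in A-iPSC without A-SC 1.3, A-SC 1.4 or A-iPSC 19 (adjusted p up to 0.155) and in Y-iPSC without Y-iPSC 4 (adjusted p = 0.0587).

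Among the 11 tested genes of let-7 processing, Dis3l2, the exonuclease that degrades uridylated pre-let-7, had a pattern of its own. It read 9.33 and 8.83 in A-iPSC-ZSCAN10, 9.94 and 9.76 in A-iPSC and 8.84 and 9.57 in Y-iPSC, against 7.57 and 6.77 in ESC. It was higher than in ESC by 1.91 ± 0.35 in A-iPSC-ZSCAN10 (adjusted p = 0.00467), 2.68 ± 0.35 in A-iPSC (adjusted p = 0.000224) and 2.04 ± 0.35 in Y-iPSC (adjusted p = 0.00288), and higher than in the fibroblasts of origin in all 3 kinds of iPSC. Its A-iPSC-ZSCAN10 call against ESC was lost without A-iPSC-ZSCAN10 3 or ESC H (adjusted p up to 0.0641), and its Y-iPSC call with only the arrays compared (adjusted p = 0.0552).

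Xpo5, the exporter of pre-microRNAs, read 8.31 and 8.60 in A-iPSC-ZSCAN10 against 7.32 and 6.93 in A-iPSC. The difference was 1.33 ± 0.27 (adjusted p = 0.00786), and it was lost without A-iPSC-ZSCAN10 7 or without A-iPSC 19 (adjusted p up to 0.088). In A-iPSC against Y-iPSC 0 of the 11 genes passed in limma's test, where 4.38% of all genes were lower and 6.12% higher. Of the 11, 2 had an unadjusted p under 0.05, and the median was -0.06. Against ESC, 1 was higher and 5 lower in A-iPSC, with a median of -0.53, and 1 higher and 0 lower in A-iPSC-ZSCAN10, with a median of -0.40. The shares of all genes were those given with the let-7 targets, with 18.1% lower in A-iPSC and 6.47% lower in A-iPSC-ZSCAN10.

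Of 5 tested partners that share ribonucleoprotein particles with IGF2BP1, 2 were lower in A-iPSC than in Y-iPSC (4.38% of all genes lower) and 2 higher in the comparison of A-iPSC-ZSCAN10 with A-iPSC (7.78% of all genes higher). In A-SC against Y-SC 0 of the 5 passed in limma's test, where 0.27% of all genes were lower and 0.21% higher, and 0 had an unadjusted p under 0.05. Dhx9, an RNA helicase, read 8.59 and 8.93 in A-iPSC-ZSCAN10, 7.27 and 7.15 in A-iPSC and 9.14 and 8.32 in Y-iPSC. Elavl1, the stabiliser of AU-rich mRNAs known as HuR, read 11.20 and 11.45 in A-iPSC-ZSCAN10, 10.54 and 10.30 in A-iPSC and 11.29 and 11.43 in Y-iPSC. Both were lowest in A-iPSC, without overlap with the other iPSC.

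A-iPSC minus Y-iPSC was -1.52 ± 0.34 for Dhx9 (adjusted p = 0.0174) and -0.94 ± 0.24 for Elavl1 (adjusted p = 0.0316), with a list median of -0.44 beside -0.01 over all genes. A-iPSC-ZSCAN10 minus A-iPSC was 1.55 ± 0.34 for Dhx9 (adjusted p = 0.0121) and 0.91 ± 0.24 for Elavl1 (adjusted p = 0.0269), with a list median of 0.79 beside 0.03. Elavl1 passed in no fit with 1 of the 4 arrays left out in either comparison (adjusted p up to 0.229). Its call was also lost with cyclic loess in both comparisons, and against Y-iPSC with array weights or only the arrays compared. Dhx9 was lost against Y-iPSC without Y-iPSC 12, A-iPSC 16 or A-iPSC 19, and in A-iPSC-ZSCAN10 against A-iPSC without A-iPSC-ZSCAN10 7 or A-iPSC 19 (adjusted p up to 0.127 and 0.103). Against Y-iPSC it was also lost with only the arrays compared.

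**Figure D4:**
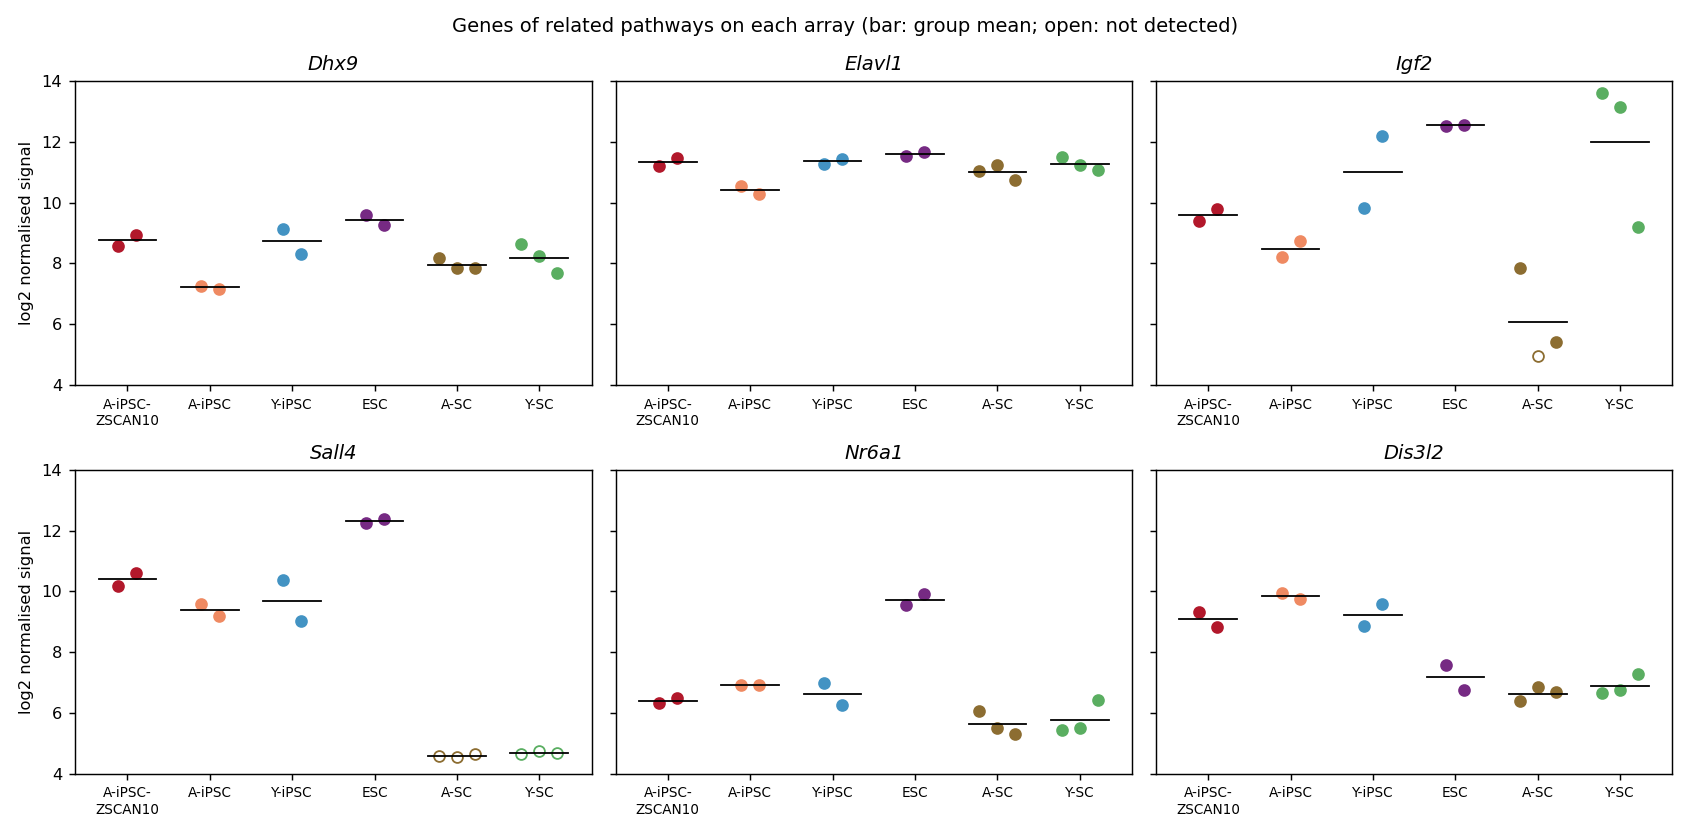
Log2 normalised signal of 6 genes of related pathways on each array, with groups along the horizontal axis; open points were not detected and black bars are group means. Dhx9 and Elavl1 are lowest on the 2 A-iPSC arrays among the iPSC, Sall4 and Nr6a1 are highest on the 2 ESC arrays, and Dis3l2 is higher on all 6 iPSC arrays than on ESC and fibroblast arrays.

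In the IGF axis, 5 of 8 genes were tested. Igf2, the imprinted fetal growth factor whose mRNA the IGF2BP proteins were named for, read 7.86, 4.95 and 5.43 in A-SC, against 13.62, 13.15 and 9.21 in Y-SC. The groups did not overlap, and the difference was -5.92 ± 1.07 (adjusted p = 0.0395). This call was lost in 6 of 9 other settings, and without Y-SC 1, Y-SC 16, A-SC 1.3 or A-SC 1.4 (adjusted p up to 0.183). In iPSC, Igf2 read 9.40 and 9.78 in A-iPSC-ZSCAN10, 8.20 and 8.72 in A-iPSC and 9.84 and 12.20 in Y-iPSC, and between the iPSC groups it did not pass.

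Among 7 tested genes of the m6A machinery, which writes, removes or reads the mark that IGF2BP proteins bind, 0 passed in A-iPSC against Y-iPSC in limma's test, and 0 had an unadjusted p under 0.05. Of all genes, 4.38% were lower and 6.12% higher in that comparison. For Alkbh5, a demethylase, A-iPSC-ZSCAN10 minus A-iPSC was -1.26 ± 0.38 (adjusted p = 0.0437), a call lost when any 1 of the 4 arrays was left out (adjusted p up to 0.286). Mettl3, the methyltransferase, was lower than in ESC in A-iPSC by -1.61 ± 0.34 (adjusted p = 0.00385) and in Y-iPSC by -1.17 ± 0.34 (adjusted p = 0.039). The Y-iPSC call for Mettl3 was lost without any 1 array (adjusted p up to 0.243).

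Of 5 tested HMG proteins of other families, 0 passed in limma's test in A-iPSC-ZSCAN10 against A-iPSC (1 at an unadjusted p under 0.05) or in A-iPSC against Y-iPSC (2). Of all genes, 7.78% were higher and 8.38% lower in the first comparison, and 6.12% higher and 4.38% lower in the second. Hmgn5, a nucleosome-binding protein, was higher than in A-SC in A-iPSC-ZSCAN10 by 1.43 ± 0.27 (adjusted p = 0.00432) and in A-iPSC by 2.34 ± 0.27 (adjusted p = 8.33e-05), and higher in Y-iPSC than in Y-SC by 1.96 ± 0.27 (adjusted p = 0.000426). Among 5 tested cell cycle genes linked to HMGA proteins, Cdkn2b, an inhibitor of CDK4 and CDK6, read 8.46 and 9.11 in A-iPSC-ZSCAN10, 9.99 and 10.14 in A-iPSC and 9.26 and 8.31 in Y-iPSC. A-iPSC minus Y-iPSC was 1.28 ± 0.36 (adjusted p = 0.0448), a call lost without Y-iPSC 4, A-iPSC 16 or A-iPSC 19 (adjusted p up to 0.277) and in 4 of 9 other settings. A-iPSC-ZSCAN10 minus A-iPSC was -1.28 ± 0.36 (adjusted p = 0.0333), a call lost without any 1 of its 4 arrays (adjusted p up to 0.221). Rb1 was also lower there, by -1.69 ± 0.47 (adjusted p = 0.0303), and likewise lost (adjusted p up to 0.166). These were 2 of the 5 genes, where 8.38% of all genes were lower. Rb1 was higher than in ESC and the fibroblasts of origin in all kinds of iPSC, most in A-iPSC (3.36 ± 0.47 over ESC, adjusted p = 0.000308). Of these, only the A-iPSC calls held in every other setting and left-out fit.

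Of 5 tested genes in a list of other oncofetal genes, which shares Sall4 and Igf2 with the lists above, 0 passed in limma's test in A-iPSC-ZSCAN10 against A-iPSC (1 at an unadjusted p under 0.05, median 1.0) or in A-iPSC against Y-iPSC (1, median -0.61). The shares of all genes were 7.78% higher and 8.38% lower in the first comparison, and 6.12% higher and 4.38% lower in the second. Gpc3, a cell surface proteoglycan of fetal liver and hepatoma, read 5.65 and 6.83 in A-iPSC-ZSCAN10 and 6.18 and 4.84 in A-iPSC, against 10.23 and 9.61 in ESC. The difference from ESC was -3.68 ± 0.86 in A-iPSC-ZSCAN10 (adjusted p = 0.0161) and -4.41 ± 0.86 in A-iPSC (adjusted p = 0.00247). The A-iPSC-ZSCAN10 call was lost when either ESC array or A-iPSC-ZSCAN10 3 was left out (adjusted p up to 0.151).

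The genes whose tested probe followed each family member most closely over the 14 arrays were ranked by Pearson's r, as a description over groups that differ in many genes. Nearest to Lin28a were Slc5a5, Ly6g6e and Esrrb (r = 0.99 each), all highest in ESC, with group means for Esrrb of 4.83 in A-iPSC-ZSCAN10, 4.47 in A-iPSC, 4.89 in Y-iPSC and 12.74 in ESC. Nearest to Igf2bp1 were Agrn (r = 0.92), Nifk and Wdr70 (r = 0.91 each). Agrn, a basement membrane proteoglycan, averaged 11.41 in A-iPSC-ZSCAN10, 9.83 in A-iPSC and 11.84 in Y-iPSC.

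Nearest to Igf2bp3 were Ptgis, Thoc1 and Tfpt (r = 0.90 each), and Ptgis, the prostacyclin synthase, averaged 7.61 in A-iPSC-ZSCAN10, 4.49 in A-iPSC, 6.28 in Y-iPSC and 9.37 in ESC. Nearest to Hmga2 were Lingo2 and Tyrobp (r = 0.97 each) and Ccl4 (r = 0.95), of which Tyrobp is a signalling adaptor of myeloid cells and Ccl4 a chemokine. Tyrobp averaged 4.68 in A-SC, against 6.16 in Y-SC. Igf2bp1 and Igf2bp3 themselves correlated at r = 0.75 and rho = 0.78 over the 14 arrays.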

How the data were processed

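Bead arrays of 14 mouse samples were read from the deposited non-normalized table, which per the file headers gives, for 25697 probes, signal intensity plus detection p-value. The authors' deposited value table holds intensity on a linear scale, used only as an alternative. Per the submitters' processing notes lumi was used. Whether background was subtracted is not stated. The deposited intensity was processed with limma 3.58.1 in R 4.3.3: neqc inferred the negative controls from detection p-values, and quantile normalization and log2 followed an offset of 16. A probe was tested if some group had it detected (p under 0.05) on all its arrays, which kept 14742 probes and 10004 genes. The linear model had 1 mean per group over 14 arrays (8 residual degrees of freedom), each gene was read from its brightest tested probe, and calls were made at 0.05 after Benjamini-Hochberg adjustment. The planned comparisons were 12 contrasts. Steps were tested on simulated data.

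Of 23978 probes with an annotated symbol, 23962 were brought to current symbols by gene ID. The members, the lists and the tests were chosen with earlier results of these data known. Named were the 7 members, the 3 genes nearest in pattern to each, up to 3 passing genes per list and comparison, and Zscan10 and Nanog; not all are printed. A fold against a group without detection is a bound against the lowest detected signal. Alternatives were no background correction, the deposited values, median scaling, cyclic loess, an offset of 50, no filter, array weights, export format as a block, only the arrays compared, and each array left out.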

Additional observations from a re-analysis of the deposited data

Results flagged for a closer look

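Differences between reprogramming changes that passed their own test are given here as values. In (A-iPSC minus A-SC) minus (Y-iPSC minus Y-SC), Tgfbr1, a TGF-beta receptor and let-7 target, differed by 1.47 (adjusted p = 0.0263). That call was lost without A-SC 1.4, Y-iPSC 4, A-iPSC 16 or A-iPSC 19, with adjusted p up to 0.091, and with only the arrays compared. In the same contrast Zscan10 differed by -2.03 (adjusted p = 0.0448), and passed in 3 of 9 other settings and in 2 of 10 fits with an array left out. In (A-iPSC-ZSCAN10 minus A-SC) minus (Y-iPSC minus Y-SC), a contrast added after the data were seen, Igf2bp1 differed by 3.51 and Igf2bp3 by 2.51. For both genes these values mostly restate the difference between A-SC and Y-SC. A-iPSC-ZSCAN10 minus A-SC for Igf2bp3 was 0.93, against -1.59 for Y-iPSC minus Y-SC.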

How the results depend on the processing

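Over 9 other settings and fits that left out 1 array each, 704 of 760 values of the 4 genes kept their side of the threshold, 42 lost and 14 gained a call, and 0 reversed; of 1913 values of the named list genes and of Zscan10 and Nanog, 290 lost and 5 gained a call, and 0 reversed. With only the arrays compared, 0 of the 4 genes passed in A-SC minus Y-SC in limma's test, against 3 reported, and 3 had an unadjusted p under 0.05. With array weights, 2 passed in A-iPSC minus A-SC and 2 in A-iPSC-ZSCAN10 minus A-SC, against 1 each, and median scaling also gave 2 in A-iPSC-ZSCAN10 minus A-SC. In the added contrast, 1 passed instead of 2 with array weights, cyclic loess or export format as a block, and 0 with no filter or only the arrays compared. That last setting had fewer arrays in the fit, and the cause of these changes was not tested. With 1 array left out, counts ranged over 2 to 3 in A-SC minus Y-SC (2 without A-SC 1 or A-SC 1.4), 3 to 4 in ESC minus fibroblasts (3 without ESC D or ESC H), 1 to 2 in A-iPSC minus A-SC (2 without A-SC 1), 1 to 2 in A-iPSC-ZSCAN10 minus A-SC (2 without A-SC 1.4), 1 to 2 in Y-iPSC minus ESC (1 without ESC D), 0 to 1 in the difference of the reprogramming changes (1 without Y-SC 16) and 0 to 2 in the added contrast, where only Y-iPSC 12 could be left out without a change of the count. In A-iPSC-ZSCAN10 minus ESC 2 passed, against 3 reported, whichever of its 4 arrays was left out. No paired analysis was possible because the groups share fewer than 2 replicate numbers, and what these codes stand for is not stated. Signal close to background limits Lin28a outside ESC and Hmga2 outside Y-SC. It also limits Igf2bp3 in A-iPSC and Igf2bp1 in A-SC.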
